A study of Caenorhabditis elegans with 20 samples.

Results

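The glutathione S-transferases of *C. elegans* were followed as a gene family across 4 groups of adult animals. Members were chosen by name, as every gene of the count table whose WormBase identifier has a symbol beginning with *gst-*, *gsto-* or *gstk-* in the Ensembl annotation of WBcel235. This gave 49 of the 22736 genes in the table, made up of 44 *gst-*, 3 *gsto-* and 2 *gstk-* genes, all annotated as protein coding. No measured value entered the choice.

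The study compared *Δdhgd-1* mutants with wild-type (WT) animals, each with and without vitamin B12, and sequenced RNA by Cel-seq2, a method that counts reads at the 3′ ends of transcripts. The mutants carry *dhgd-1(tm6671)*, which removes 5′ sequence of the D-2-hydroxyglutarate dehydrogenase gene, and were backcrossed to WT. Each sample pooled many animals. All 4 groups were day 1 adults grown on *E. coli* OP50, a diet low in vitamin B12, and their bodies were lysed after the eggs had been left out. The groups were *Δdhgd-1* mutants with 64 nM adenosylcobalamin (the vitamin B12 form used), *Δdhgd-1* mutants without supplement, WT animals with 64 nM adenosylcobalamin and WT animals without supplement. Each group had 5 biological replicates, numbered 1, 2, 5, 6 and 7, and values below are listed in that order.

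Glutathione S-transferases join the tripeptide glutathione to reactive electrophiles, which makes these compounds more soluble and prepares them for export from the cell. In *C. elegans* many of them belong to the phase II detoxification response controlled by the transcription factor SKN-1, and *gst-4* is a widely used reporter of that response. Some members have metabolic rather than detoxifying roles: the zeta class holds maleylacetoacetate isomerase, an enzyme of tyrosine breakdown, the omega class acts as thioltransferases, and the kappa class sits in peroxisomes and mitochondria.

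Library totals lay between 2837943 and 15457950 counts, with a median of 10564242.5 over the 20 libraries. Replicates 1 and 2 have library names of one series (olga) and replicates 5, 6 and 7 of another (s), and this library series was a term in the model. The mRNA of *acdh-1*, which vitamin B12 represses, followed the labels: it was at 14.5 to 112 CPM in supplemented and 214 to 428 CPM in unsupplemented *Δdhgd-1* mutants, and at 5.82 to 30.2 CPM in supplemented and 193 to 373 CPM in unsupplemented WT animals (CPM, a gene's counts scaled to a common library total). Counts at the 3′ end of *dhgd-1* lie outside the deletion and do not check the genotype. Marker lists showed intestine, muscle, hypodermis, neurons and germline in all groups, with the 8 germline and oocyte markers summing to 4034 CPM or more in every library. Of the early embryo markers, 7 of 8 were in the table, and they summed to 4.46 to 8.07 CPM in mutant and 2.09 to 5.92 CPM in WT libraries. Replicate 7 of the supplemented WT group stood apart, with intestine markers at 1245 CPM against 5554 to 7056 CPM in the other supplemented WT libraries. It was also lowest of its group for body wall muscle (544 against 1915 to 3421 CPM) and neurons (220 against 447 to 667 CPM). The germline value of 4034 CPM was from this library, against 7026 to 13021 CPM in the others. Its hypodermis and pharynx sums lay within the range of the others. Its glutathione S-transferase sum, 760 CPM, was the highest of the 20 libraries. Replicate 7 was also lowest of its group for intestine, neurons and germline in unsupplemented WT animals (2947, 338 and 5602 CPM). The same held in supplemented mutants (4109, 359 and 6289 CPM), but not in unsupplemented mutants. The main counts are therefore also given with replicate 7 left out of every group.

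Reads were counted for 48 of the 49 members, and 36 to 44 members had at least 1 count in a library. After the filter on low counts 29 members were tested. The 20 untested members held 865 of the 92862 counts of the family (0.931%) and none of them averaged more than 5.35 counts a library. They were removed by the filter and not tested. Among them *gsto-2*, an omega class gene, had 1 to 2 counts in each unsupplemented *Δdhgd-1* library and 0 in every unsupplemented WT library. With vitamin B12 it had 0, 0, 3, 2 and 0 counts in mutants and 0, 0, 1, 0 and 3 counts in WT animals. The unsupplemented WT libraries were also shallower, with a median total of 6549113 against 10992027 counts in unsupplemented mutants. These counts are too few to set the groups apart.

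The family was dominated by a few genes. Averaged over the 20 libraries, *gst-7* was at 155.6 CPM, *gst-1* at 81.8 CPM, *gst-36* at 70.9 CPM, *gst-27* at 31.9 CPM and *gst-28* at 31.8 CPM, and these 5 made up 70.8% of the family's 525 CPM. The lowest tested member averaged 0.915 CPM. Because Cel-seq2 reads the 3′ end only, these levels were not divided by gene length. Reads of near-identical copies within a family of this kind can be divided among genes by the counting step, and how such reads were treated is not given in the sources used here.

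**Figure D1:**
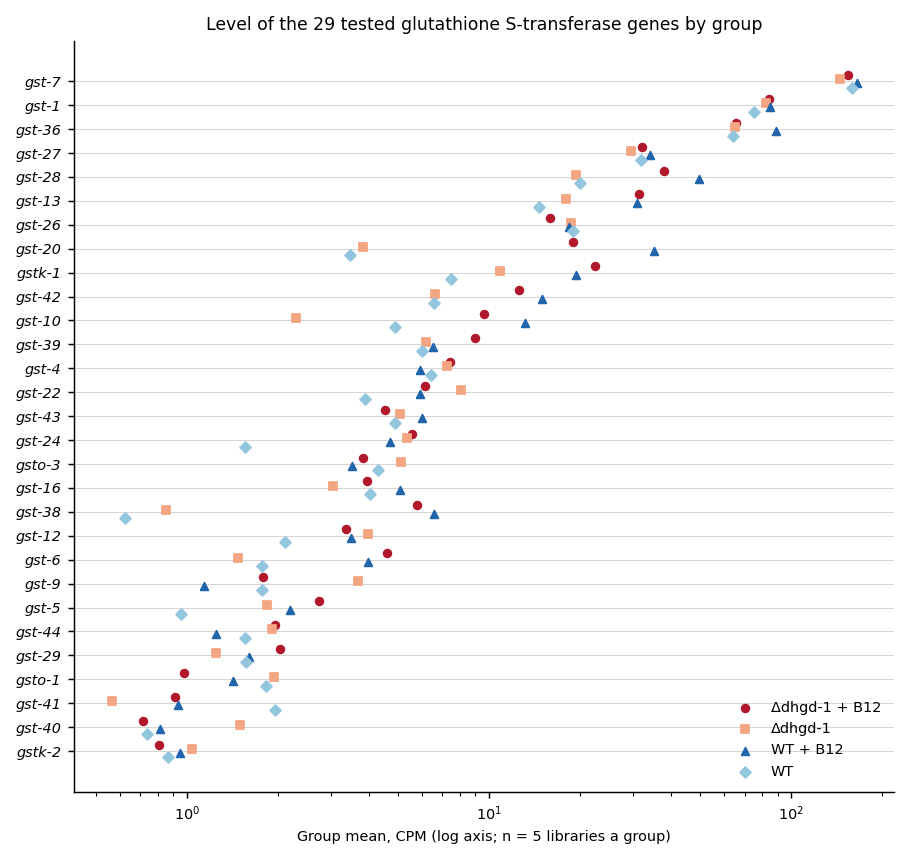
Group mean level of the 29 tested members in CPM on a log axis, ordered by the mean over all 20 libraries, with 1 marker for each of the 4 groups (n = 5 libraries each). The supplemented groups lie to the right of the unsupplemented groups for *gst-20*, *gst-10*, *gst-38*, *gst-28*, *gstk-1* and *gst-42*, while the 4 markers of *gst-7* and of *gst-1*, the most abundant members, lie close together.

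A small set of these genes was higher with vitamin B12. In *Δdhgd-1* mutants 7 of the 29 tested members were called higher with vitamin B12 than without, namely *gst-38*, *gst-20*, *gst-10*, *gst-6*, *gstk-1*, *gst-28* and *gst-42*. In WT animals 6 were called higher, and these were the same genes without *gst-6*. A gene was called by edgeR's quasi-likelihood test at a Benjamini-Hochberg adjusted p under 0.05, taken over all genes tested, with a fold change over 1.5. Among all 11270 genes tested, 0.843% were called higher and 1.02% lower with vitamin B12 in the mutants, and 0.772% were called higher and 0.674% lower in WT animals. No member was called lower in either strain, and at these shares 29 genes can hold none called lower without standing out. DESeq2 called 7 members higher in the mutants and 7 in WT animals, and none lower, and it called 1.08% of all genes with an adjusted p higher in the mutants and 0.929% in WT animals. In the fit with the replicate number as a block, 8 members were called higher in each strain, where 1.34% of all genes in the mutants and 1.42% in WT animals were. At an unadjusted p under 0.05, 10 members were higher and 2 lower in the mutants, and 10 were higher and none lower in WT animals. In either direction, 10.5% of all genes in the mutants and 7.85% in WT animals passed that threshold.

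The median log2 fold change of the 29 members with vitamin B12 was 0.21 in mutants, against 0.01 for all genes tested, and 0.26 in WT animals, against -0.03 for all genes. With replicate 7 left out of every group, an alternative added after the data were seen, 3 members were called higher in the mutants and 4 in WT animals. Without *Δdhgd-1* replicate 7, without supplemented *Δdhgd-1* replicate 1 or without supplemented *Δdhgd-1* replicate 7, the mutants' count was 4 and *gst-6*, *gst-28* and *gst-42* were the members that lost their call. Without WT replicate 6 the count in WT animals was 4, and *gst-10* and *gst-42* lost their call. Shares of all genes called are not given for these fits, so the lower counts cannot be told from a general loss of calls. In these bulk samples, more cells of a type and more RNA per cell cannot be told apart.

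**Figure D2:**
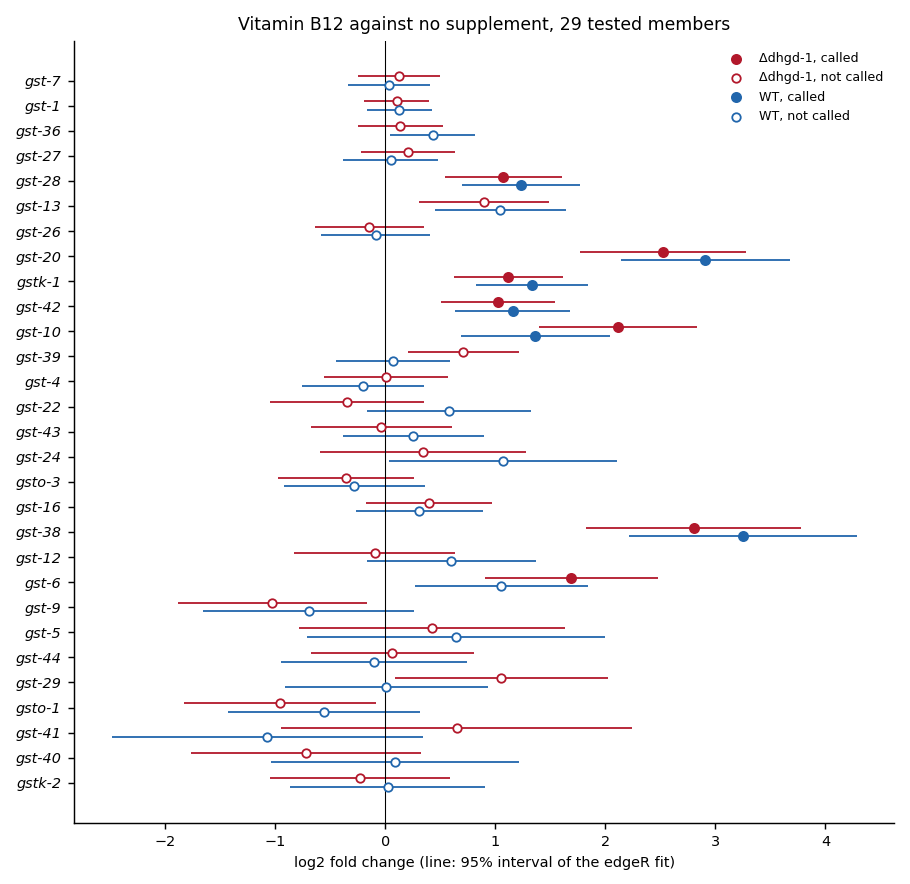
Log2 fold change with vitamin B12 over no supplement for each of the 29 tested members in *Δdhgd-1* mutants (red) and WT animals (blue), ordered by abundance from top to bottom, with 95% intervals of the edgeR fit. Filled points are called (7 in mutants, 6 in WT animals), and *gst-20* and *gst-38* lie farthest to the right in both strains.

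The largest differences were in *gst-20* and *gst-38*. *gst-20* (WBGene00001768; WBcel235 chromosome II, 13608154 to 13609824) was at 39.0, 20.3, 9.70, 9.51 and 15.997 CPM in supplemented *Δdhgd-1* mutants, against 5.71, 8.499, 2.60, 1.00 and 1.37 CPM in unsupplemented mutants. In WT animals it was at 64.5, 59.3, 25.9, 9.72 and 15.96 CPM with vitamin B12, against 4.67, 2.74, 5.34, 2.44 and 2.14 CPM without. Supplemented and unsupplemented libraries did not overlap in either strain, and the highest values of the supplemented groups were in the olga libraries. The difference with vitamin B12 on the log2 scale was 2.53 (SE 0.37, adjusted p = 0.00014) in mutants and 2.91 (SE 0.37, adjusted p = 2.04e-05) in WT animals.

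*gst-38* (WBGene00001786; WBcel235 chromosome V, 15915162 to 15916070) had low levels in the unsupplemented groups. It was at 3.84, 5.74, 7.06, 3.95 and 8.19 CPM in supplemented *Δdhgd-1* mutants, against 0.557, 1.15, 0.794, 0.546 and 1.23 CPM in unsupplemented mutants. WT animals had 2.11, 10.7, 8.67, 2.66 and 8.64 CPM with vitamin B12, against 0, 0.274, 1.53, 0.763 and 0.554 CPM without. The groups again did not overlap in either strain. These levels rest on few reads, 22 to 109 counts a library in the supplemented and 4 to 17 counts in the unsupplemented mutants, and 6 to 96 counts in the supplemented and 0 to 16 counts in the unsupplemented WT libraries. The log2 fold change was 2.80 (SE 0.47, adjusted p = 0.000863) in mutants and 3.25 (SE 0.50, adjusted p = 0.000267) in WT animals.

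*gst-10* (WBGene00001758; WBcel235 chromosome V, 2561690 to 2564645) encodes a transferase that conjugates 4-hydroxynonenal, a product of lipid peroxidation, and has been linked to lifespan in this animal. Its level was 5.17, 7.30, 8.77, 9.70 and 17.2 CPM in supplemented *Δdhgd-1* mutants, against 2.23, 2.99, 2.82, 1.27 and 2.16 CPM in unsupplemented mutants. In WT animals it was 7.05, 11.5, 19.6, 7.89 and 19.4 CPM with vitamin B12, against 3.38, 4.94, 8.21, 2.14 and 5.70 CPM without. The mutant groups did not overlap, whereas in WT animals the highest unsupplemented library lay above the 2 lowest supplemented ones. On the log2 scale the difference was 2.12 (SE 0.35, adjusted p = 0.000586) in mutants and 1.36 (SE 0.33, adjusted p = 0.031) in WT animals. The call in WT animals was lost without any one of 6 of the 10 WT libraries (WT replicates 1, 6 and 7, and supplemented WT replicates 2, 5 and 7), with adjusted p between 0.0631 and 0.0954, and at 0.0801 with only the 10 WT libraries in the fit. It was also lost without the batch term (adjusted p = 0.123) and with replicate 7 left out of every group (adjusted p = 0.13).

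*gst-42* (WBGene00001790; WBcel235 chromosome X, 11726264 to 11727936) encodes maleylacetoacetate isomerase, the zeta class enzyme of tyrosine breakdown. Supplemented *Δdhgd-1* mutants had 19.9, 9.91, 10.6, 9.51 and 12.99 CPM, against 9.60, 8.27, 5.63, 4.003 and 5.48 CPM in unsupplemented mutants. Supplemented WT animals had 19.03, 15.1, 10.9, 9.999 and 19.7 CPM, against 12.4, 4.67, 6.30, 3.66 and 5.77 CPM in unsupplemented WT animals. The ranges overlapped in both strains, through replicate 1 of the unsupplemented groups, while all 5 pairs of equal replicate number were higher with vitamin B12 in each strain. Fitted log2 fold changes were 1.02 (SE 0.25, adjusted p = 0.0285) in mutants and 1.16 (SE 0.25, adjusted p = 0.0144) in WT animals. The mutant call was lost without any one of 7 of the 10 mutant libraries, with adjusted p between 0.0583 and 0.151, and at 0.0705 with library totals as the scale. In WT animals it was lost without WT replicate 6 (adjusted p = 0.0528) and with only the 10 WT libraries in the fit (adjusted p = 0.0835). In both strains the call was also lost within each library series alone and without the batch term (adjusted p = 0.205 in mutants and 0.109 in WT animals). With replicate 7 left out of every group the adjusted p was 0.14 in mutants and 0.129 in WT animals.

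*gstk-1* (WBGene00014251; WBcel235 chromosome II, 9656705 to 9657719) encodes a kappa class transferase of peroxisomes. It was at 33.5, 21.1, 22.9, 14.9 and 19.4 CPM in supplemented *Δdhgd-1* mutants, against 20.2, 9.88, 10.4, 7.91 and 5.84 CPM in unsupplemented mutants. In WT animals it was at 22.9, 20.3, 23.6, 10.7 and 19.2 CPM with vitamin B12, against 9.18, 7.96, 6.30, 4.73 and 9.10 CPM without. The WT groups did not overlap, and the mutant groups overlapped through unsupplemented replicate 1. The fit gave log2 fold changes of 1.12 (SE 0.24, adjusted p = 0.00915) in mutants and 1.33 (SE 0.25, adjusted p = 0.00241) in WT animals. The mutant call was lost without the batch term (adjusted p = 0.0755) and with replicate 7 left out of every group (adjusted p = 0.0752). Within each library series alone the call was lost in both strains. The kappa class relative *gstk-2*, a mitochondrial protein, was not called, with log2 fold changes of -0.23 (95% interval -1.05 to 0.59) in mutants and 0.02 (-0.87 to 0.91) in WT animals.

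*gst-28* (WBGene00001776; WBcel235 chromosome II, 15166194 to 15167577) was the only one of the 5 most abundant members that was called. It was at 53.2, 41.98, 23.7, 24.3 and 46.7 CPM in supplemented *Δdhgd-1* mutants, against 24.2, 31.9, 16.2, 11.3 and 13.5 CPM in unsupplemented mutants. WT animals had 67.3, 58.9, 30.2, 22.02 and 69.7 CPM with vitamin B12, against 30.4, 18.1, 20.4, 10.2 and 20.6 CPM without. The ranges overlapped in both strains, and all 5 pairs were higher with vitamin B12 in each. Log2 fold changes were 1.07 (SE 0.26, adjusted p = 0.0244) in mutants and 1.24 (SE 0.26, adjusted p = 0.00942) in WT animals. The mutant call was lost without any one of 7 of the 10 mutant libraries, with adjusted p between 0.0527 and 0.188, and at 0.0697 with library totals as the scale. It was also lost with replicate 7 left out of every group (adjusted p = 0.102). Without the batch term the call was lost in both strains (adjusted p = 0.267 in mutants and 0.0957 in WT animals).

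*gst-6* (WBGene00001754; WBcel235 chromosome II, 4879891 to 4881105) was at 8.75, 5.74, 2.55, 2.01 and 3.91 CPM in supplemented *Δdhgd-1* mutants, against 3.06, 1.84, 1.30, 0.364 and 0.793 CPM in unsupplemented mutants. In WT animals it was at 5.64, 4.33, 4.52, 1.38 and 4.04 CPM with vitamin B12, against 2.58, 1.65, 2.58, 0.611 and 1.42 CPM without. The groups overlapped in both strains, and every pair was higher with vitamin B12. The log2 fold change was 1.69 (SE 0.38, adjusted p = 0.0148) in mutants, and 1.05 (SE 0.38, adjusted p = 0.296) in WT animals, where the fit with the replicate block gave an adjusted p of 0.0453. The mutant call was lost without the batch term (adjusted p = 0.139) and with replicate 7 left out of every group (adjusted p = 0.144).

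*gst-13*, named here after its values were seen, was called in both strains in the fit with the replicate block, in neither in the main edgeR fit, and in WT animals by DESeq2. It was at 28.4, 39.9, 30.2, 18.2 and 39.9 CPM in supplemented *Δdhgd-1* mutants, against 18.8, 31.7, 13.8, 10.01 and 15.2 CPM in unsupplemented mutants. WT animals had 18.7, 33.9, 38.5, 14.95 and 48.4 CPM with vitamin B12, against 15.3, 16.7, 16.3, 8.09 and 16.8 CPM without. The groups overlapped in both strains and all pairs were higher with vitamin B12. The log2 fold change was 0.90 (SE 0.29) in mutants and 1.05 (SE 0.29) in WT animals. Its adjusted p was 0.142 in mutants and 0.0779 in WT animals, against 0.00901 in mutants and 0.00468 in WT animals with the replicate block. DESeq2 gave an adjusted p of 0.032 in WT animals.

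**Figure D3:**
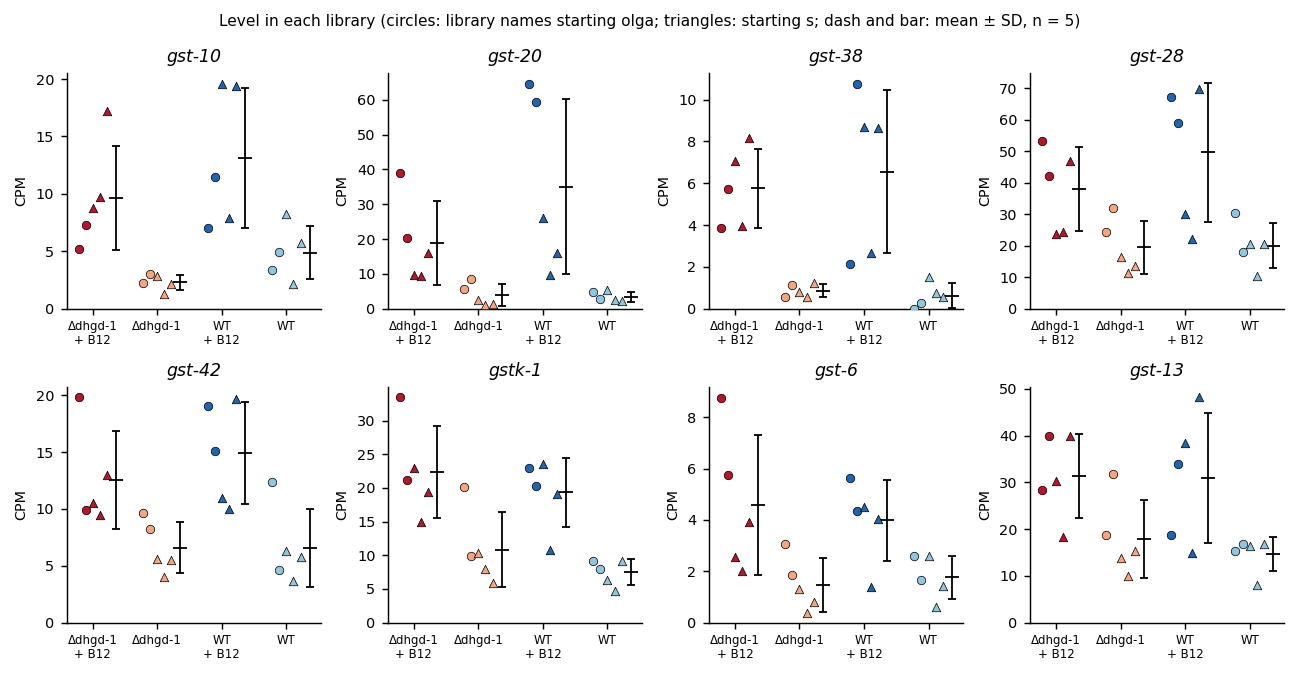
Level in CPM of the 7 members called with vitamin B12 and of *gst-13* in each of the 20 libraries, with the groups in the order supplemented mutants, unsupplemented mutants, supplemented WT and unsupplemented WT. Circles are olga and triangles s libraries, and the dash and bar give the mean and SD of 5 libraries. For *gst-20* and *gst-38* every supplemented library lies above every unsupplemented library of its strain.

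All 7 called members were also higher with vitamin B12 within each library series. They were picked by their call in a fit of these same libraries, so this is a description and no separate support. Their log2 fold changes in the mutants lay between 0.73 and 2.50 in the olga libraries alone and between 1.18 and 2.91 in the s libraries alone. In WT animals they lay between 0.98 and 5.74 in the olga libraries and between 0.98 and 2.70 in the s libraries. With the olga libraries alone, 2 replicates a group, no member was called in mutants and only *gst-20* was called in WT animals.

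Together the 7 called members summed to 112 ± 35.2 CPM in supplemented and 45.3 ± 18.7 CPM in unsupplemented *Δdhgd-1* mutants, and to 143 ± 50.5 CPM in supplemented and 44.7 ± 13.99 CPM in unsupplemented WT animals (SD, n = 5 each). The other 42 members summed to 444 ± 50.1 CPM in supplemented and 422 ± 68.4 CPM in unsupplemented mutants, and to 477 ± 91.2 CPM in supplemented and 413 ± 84.1 CPM in unsupplemented WT animals. The called members' sum was higher with vitamin B12 in 5 of 5 pairs in each strain, and that of the other members in 4 of 5 mutant and 5 of 5 WT pairs. The whole family summed to 556 ± 84.1 CPM in supplemented mutants and 620 ± 127 CPM in supplemented WT animals, and was lower in the mutants in all 5 pairs. Without supplement it summed to 467 ± 86.5 CPM in mutants and 458 ± 93.9 CPM in WT animals, and was higher in the mutants in 2 of 5 pairs. In each strain the family sum was higher with vitamin B12 than without in 5 of 5 pairs. These sums are a description with no test, since the first set was picked by its response.

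Among the 5 most abundant members, those other than *gst-28* were not called with vitamin B12. *gst-7* was at 181, 163, 158, 129 and 138 CPM in supplemented *Δdhgd-1* mutants, against 165, 150, 133, 133 and 141 CPM in unsupplemented mutants. It was at 199, 127, 139, 156 and 205 CPM in supplemented WT animals, against 207, 166, 91.4, 149 and 183 CPM in unsupplemented WT animals. The ranges overlapped in both strains, with log2 fold changes of 0.13 (95% interval -0.25 to 0.50) in mutants and 0.03 (-0.34 to 0.41) in WT animals. *gst-1* gave 0.10 (-0.19 to 0.40) in mutants and 0.12 (-0.17 to 0.42) in WT animals. *gst-27* gave 0.21 (-0.23 to 0.64) and *gst-36* 0.14 (-0.25 to 0.52) in mutants, while in WT animals *gst-27* gave 0.05 (-0.38 to 0.48) and *gst-36* 0.43 (0.04 to 0.82, adjusted p = 0.497).

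The SKN-1 reporter gene *gst-4* was not among the called members. It was at 2.65, 4.95, 11.2, 8.09 and 10.1 CPM in supplemented *Δdhgd-1* mutants, against 3.90, 5.51, 9.97, 6.64 and 10.2 CPM in unsupplemented mutants. WT animals had 1.76, 2.07, 9.30, 4.50 and 11.8 CPM with vitamin B12, against 2.26, 3.29, 7.54, 7.18 and 11.8 CPM without. In every group both olga libraries were lower than the 3 s libraries, and supplemented and unsupplemented libraries overlapped in both strains. The log2 fold change was 0.01 (95% interval -0.56 to 0.57) in mutants and -0.20 (-0.76 to 0.35) in WT animals.

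The omega class members tested and the zeta relative of *gst-42* were not called with vitamin B12. *gst-43*, that relative, had log2 fold changes of -0.04 (95% interval -0.68 to 0.60) in mutants and 0.26 (-0.39 to 0.90) in WT animals. Of the omega class, *gsto-1* had -0.96 (-1.83 to -0.08, adjusted p = 0.411) in mutants and -0.55 (-1.43 to 0.32) in WT animals, and *gsto-3* had -0.36 (-0.97 to 0.26) and -0.28 (-0.92 to 0.36). Intervals were wide for *gst-5* (0.42, -0.79 to 1.63 in mutants, and 0.64, -0.71 to 2.00 in WT animals), *gst-44* (0.06, -0.68 to 0.81, and -0.10, -0.95 to 0.74) and *gst-41* (0.65, -0.95 to 2.24, and -1.07, -2.49 to 0.34).

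The 2 strains were then compared for their response to the vitamin, and no member passed. The interaction test was edgeR's quasi-likelihood test of the mutant effect minus the WT effect at an adjusted p under 0.05, and it called 0.0444% of all genes. No member had an unadjusted p under 0.05, and DESeq2 and the fit with the replicate block also gave 0. The interval of this difference was -1.45 to 0.68 for *gst-20*, -1.89 to 0.99 for *gst-38*, -0.22 to 1.73 for *gst-10* and -0.47 to 1.74 for *gst-6* on the log2 scale, and each of these intervals reaches beyond 1 log2 unit. The narrower intervals of *gst-42* (-0.87 to 0.60), *gstk-1* (-0.91 to 0.49) and *gst-28* (-0.91 to 0.59) stay within 1 log2 unit. The 2 vitamin B12 comparisons share no library, though libraries of equal replicate number correlated across the strains. The 6 members called in both made up 85.7% of those called in mutants and 100% of those called in WT animals. The matching share of all genes is not given here. Of the 29 tested members 21 (72.4%) had the same sign in both strains, against 57.6% of all genes tested. Of these 21 members 17 were higher and 4 lower with vitamin B12. Among the 22 members uncalled in both strains 14 had the same sign.

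No member was called between *Δdhgd-1* mutants and WT animals, with or without vitamin B12, by edgeR's quasi-likelihood test. Without supplement 1.82% of all genes tested were called higher and 0.994% lower in the mutants, and with vitamin B12 0.346% were called higher and 0.204% lower. At an unadjusted p under 0.05, 4 members differed without supplement (2 higher and 2 lower) and 3 with vitamin B12 (1 higher and 2 lower), where 15.1% of all genes without supplement and 6.79% with vitamin B12 passed that threshold. DESeq2 called 1 member, *gst-10*, lower without supplement, where it called 1.35% of all genes with an adjusted p lower, and no member with vitamin B12. The fit with the replicate block called 1 member higher and 2 lower without supplement, and none with vitamin B12. It called 3.98% of all genes higher and 1.59% lower in the unsupplemented mutants. The median log2 fold change of the members was -0.11 without supplement, against -0.03 for all genes, and -0.14 with vitamin B12, against 0.01 for all genes. These comparisons share their libraries with those of vitamin B12. With library totals as the scale the median of all genes without supplement was 0.10 and that of the members 0.03.

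The 3 members called with the replicate block were *gst-10*, *gst-41* and *gst-22*. *gst-10*, whose values are given above, was lower in unsupplemented mutants than in unsupplemented WT animals in all 5 pairs, with overlapping ranges, at a log2 fold change of -1.24 (SE 0.36, adjusted p = 0.0606). The replicate block gave it an adjusted p of 0.016 and DESeq2 one of 0.0231. The difference was -0.72 in the olga and -1.48 in the s libraries alone. With vitamin B12 its difference between the strains was -0.49 (95% interval -1.13 to 0.16). *gst-41* was at 1.81, 0.459, 0.289, 0.182 and 0.0721 CPM in unsupplemented mutants, against 4.19, 1.10, 0.286, 1.22 and 3.01 CPM in unsupplemented WT animals. It was lower in 4 of the 5 pairs, at -2.26 (SE 0.73, adjusted p = 0.101, and 0.0335 with the replicate block), with no more than 38 counts in any of these libraries. With replicate 7 left out of every group it was -1.41 (adjusted p = 0.241), and it was -1.24 in the olga and -3.10 in the s libraries alone. *gst-22* was at 7.51, 9.19, 11.8, 5.19 and 6.63 CPM in unsupplemented mutants, against 7.41, 2.74, 2.39, 1.83 and 4.98 CPM in unsupplemented WT animals. It was higher in all 5 pairs, at 0.92 (SE 0.35, adjusted p = 0.192, and 0.0359 with the replicate block). Its difference was 0.59 in the olga and 1.23 in the s libraries alone. Annotation places another gene, F21H7.12, on the opposite strand over *gst-22*, and whether the counting used strand is not given in the sources used here.

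Other members with large estimates between the strains had wide intervals. *gst-24* had a log2 fold change of 1.03 without supplement (95% interval -0.01 to 2.06), and *gst-20* had -0.82 with vitamin B12 (-1.51 to -0.14, adjusted p = 0.63). *gst-39* gave 0.53 (0.03 to 1.04, adjusted p = 0.711) and *gst-36* -0.47 (-0.86 to -0.08, adjusted p = 0.626) with vitamin B12. The reporter *gst-4* gave 0.14 (-0.40 to 0.69) without supplement and 0.35 (-0.20 to 0.90) with vitamin B12. *gst-42* gave -0.16 (-0.69 to 0.37) and -0.29 (-0.80 to 0.21) in the same 2 comparisons.

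**Figure D4:**
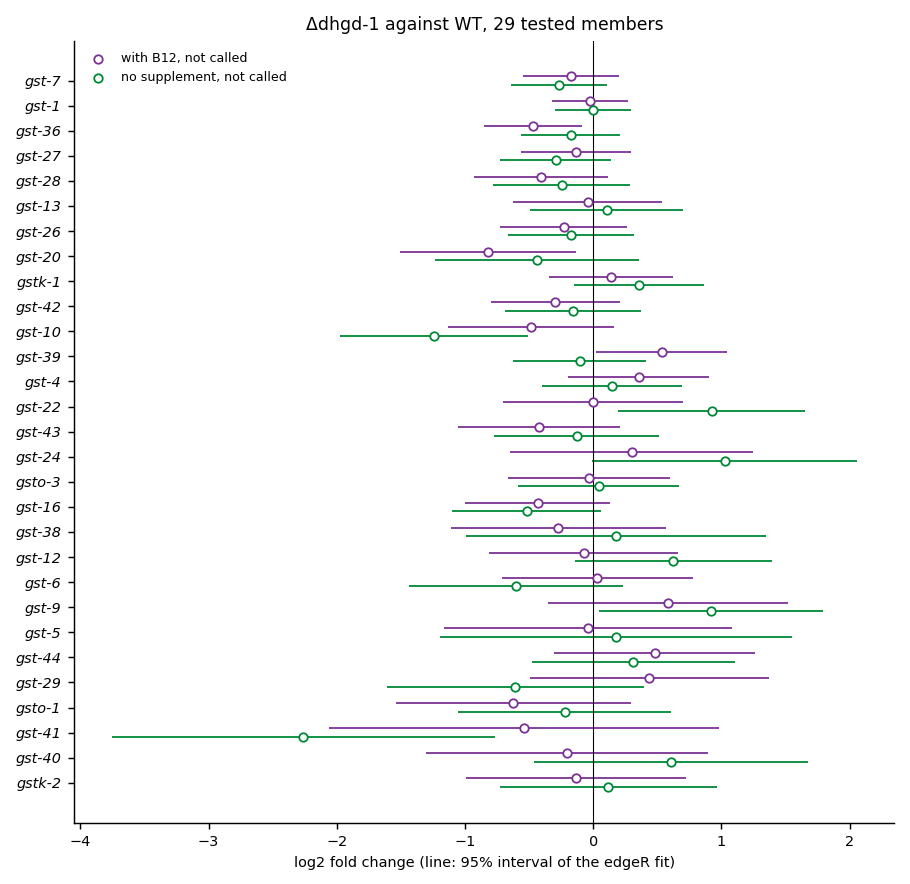
Log2 fold change of *Δdhgd-1* mutants over WT animals for each of the 29 tested members, with vitamin B12 (purple) and without supplement (green), ordered by abundance from top to bottom, with 95% intervals of the edgeR fit. No member is called, and *gst-41* and *gst-10* lie farthest to the left without supplement, at -2.26 and -1.24.

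Of the 2 early embryo markers tested, only *sdz-8* was called between the strains (edgeR). It was higher in the mutants, at a log2 fold change of 2.04 (adjusted p = 0.000226) without supplement and 1.30 (adjusted p = 0.0323) with vitamin B12. The median of the 2 markers was 1.08 without supplement and 0.91 with vitamin B12. All 7 markers of the table summed to 4.46 to 7.56 CPM in supplemented mutants against 2.11 to 5.92 CPM in supplemented WT animals, and to 4.55 to 8.07 CPM in unsupplemented mutants against 2.09 to 4.11 CPM in unsupplemented WT animals. The intestine markers, none of which was called, summed to 5474 to 8501 CPM in unsupplemented mutants against 2947 to 5776 CPM in unsupplemented WT animals. The replicate block, the fit that called *gst-10*, *gst-22* and *gst-41*, also called some tissue markers higher in unsupplemented mutants than in unsupplemented WT animals. These were 1 of 6 body wall muscle markers (*unc-22*), 1 of 5 pharynx markers (*pha-4*) and 1 of 6 neuron markers (*egl-21*). That fit called 3.98% of all genes higher in this comparison. The part of any cell type in the strain differences was not tested. No marker of any list was called with vitamin B12, and with the replicate block 1 pharynx marker was called lower in WT animals. The 5 pharynx markers had the largest median log2 fold changes there among lists with more than 2 tested genes, -0.89 in mutants and -0.92 in WT animals. They summed to 43.9 to 200 CPM in supplemented against 77.5 to 532 CPM in unsupplemented mutants, and to 22.3 to 111 CPM in supplemented against 91.3 to 201 CPM in unsupplemented WT animals. Their part in the vitamin B12 differences was not tested.

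Much of the family sits in arrays of neighbouring genes. Chromosome II carries 26 of the 49 members, and 25 members lie in 4 arrays in which neighbours are no more than 10000 base pairs apart, 3 of them on chromosome II and 1 on chromosome IV. Of the 7 called members, *gst-6*, *gst-20* and *gst-28* lie in the 3 arrays of chromosome II, 1 in each, and the other 4 lie outside any array. None of the 7 overlaps another annotated gene, whereas 14 of the 49 members do.

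In each of the 3 arrays the called gene stood beside neighbours that were not called. *gst-20* is followed by *gst-24*, whose log2 fold change with vitamin B12 was 0.34 (95% interval -0.60 to 1.28) in mutants and 1.07 (0.03 to 2.11, adjusted p = 0.597) in WT animals. *gst-28* lies between *gst-27*, described above, and *gst-29*, and *gst-6* is followed by *gst-7*. In mutants the estimate of *gst-29*, 1.05 (0.09 to 2.02, adjusted p = 0.411), was close to the 1.07 of *gst-28*. It was -0.61 in the olga and 2.02 in the s libraries alone, and *gst-29* was called in the latter (adjusted p = 0.0333). In WT animals *gst-29* gave 0.01 (-0.92 to 0.93). Farther along, *gst-9* in the array of *gst-6* gave -1.03 (-1.89 to -0.17, adjusted p = 0.341) in mutants and -0.69 (-1.65 to 0.26) in WT animals. *gst-39*, beyond *gst-29*, gave 0.71 (0.21 to 1.21, adjusted p = 0.195) in mutants and 0.07 (-0.45 to 0.59) in WT animals. *gst-9*, *gst-12*, *gst-16*, *gst-26* and *gst-29* were named for their place in the arrays after their values were seen.

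Ratios of counts between neighbours, which do not depend on the library total, are given as a description, since the pairs were chosen after their values were seen. The ratio of *gst-20* to *gst-24* was 2.29 to 4.90 in supplemented *Δdhgd-1* mutants against 0.586 to 1.13 in unsupplemented mutants. It was 4.15 to 26.5 in supplemented WT animals against 1.04 to 3.20 in the 4 unsupplemented WT libraries with a count for *gst-24*. The ratio of *gst-28* to *gst-27* was 0.833 to 1.60 in supplemented against 0.519 to 0.842 in unsupplemented mutants, and 0.815 to 2.41 in supplemented against 0.355 to 0.795 in unsupplemented WT animals. The ratio of *gst-6* to *gst-7* was 0.0156 to 0.0484 in supplemented against 0.00273 to 0.0186 in unsupplemented mutants, and 0.00879 to 0.0342 in supplemented against 0.00411 to 0.0282 in unsupplemented WT animals. For *gst-20* to *gst-24* the groups did not overlap in either strain, for *gst-28* to *gst-27* they overlapped in mutants only, and for *gst-6* to *gst-7* they overlapped in both strains.

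**Figure D5:**
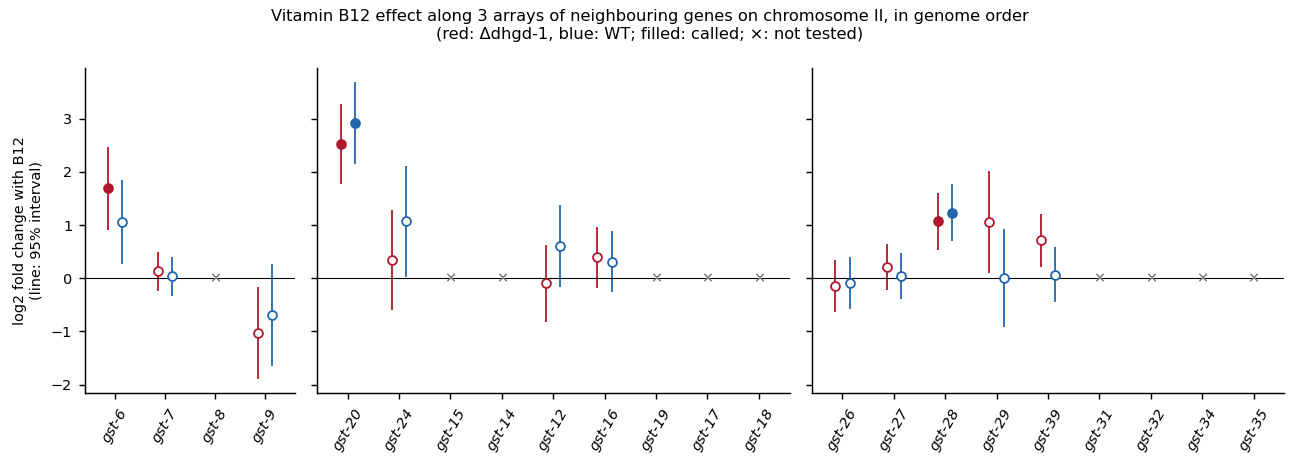
Log2 fold change with vitamin B12 in *Δdhgd-1* mutants (red) and WT animals (blue) for the members of 3 arrays on chromosome II, in genome order, with 95% intervals of the edgeR fit and crosses for members that were not tested. Filled points mark *gst-6* (mutants only), *gst-20* and *gst-28*, and the neighbours *gst-7*, *gst-24*, *gst-27*, *gst-29*, *gst-26*, *gst-12* and *gst-16* have open points. In mutants *gst-29* lies close to *gst-28*.

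Among genes of glutathione synthesis and recycling 1 was called lower with vitamin B12 in mutants, where 1.02% of all genes tested were. Of 17 genes of glutathione synthesis and recycling 15 were tested, and the only one called in any comparison was *gpx-7*, a glutathione peroxidase, which was lower in supplemented than in unsupplemented *Δdhgd-1* mutants (2.93 ± 0.89 against 7.97 ± 3.66 CPM, SD, n = 5 each; log2 fold change -1.34, SE 0.31, adjusted p = 0.0188, edgeR). *gcs-1*, which encodes the rate-limiting enzyme of glutathione synthesis, was at 48.1 ± 14.9 CPM in supplemented and 50.4 ± 21.98 CPM in unsupplemented mutants, and at 41.8 ± 11.4 CPM in supplemented and 45.3 ± 12.5 CPM in unsupplemented WT animals. The glutathione synthetase *gss-1* and the glutathione reductase *gsr-1* were not called either. The list's median log2 fold change with vitamin B12 was 0.02 in mutants and 0.01 in WT animals.

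None of 14 regulators of phase II genes was called in any comparison. With no more than 1.82% of all genes called in a direction, a list this short can hold none without standing out. Among them *skn-1*, the Nrf-type activator of this response, had log2 fold changes with vitamin B12 of 0.10 (SE 0.27) in mutants and -0.09 (SE 0.27) in WT animals, and *wdr-23*, its repressor, had -0.14 (SE 0.17) and -0.12 (SE 0.18). Of 8 MRP genes, which encode membrane pumps that export conjugates, 7 were tested. Of these 1 was called in unsupplemented mutants, where 1.82% of all genes tested were called higher than in WT animals. *mrp-2* was called higher in unsupplemented mutants than in unsupplemented WT animals (2.99 ± 0.95 against 1.11 ± 0.35 CPM; log2 fold change 1.26, SE 0.33, adjusted p = 0.0357, edgeR), and no MRP gene was called with vitamin B12.

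Tyrosine breakdown holds 5 genes, of which *gst-42*, the family member described above, alone was called. *gst-42* was called higher with vitamin B12 in both strains, where 0.843% of all genes tested in mutants and 0.772% in WT animals were. *hpd-1*, which encodes 4-hydroxyphenylpyruvate dioxygenase upstream in the same pathway, was at 116 ± 34.5 CPM in supplemented and 185 ± 63.3 CPM in unsupplemented WT animals, at a log2 fold change of -0.69 (SE 0.19, adjusted p = 0.0729 by edgeR, and 0.0363 with the replicate block, which called it lower). In mutants it gave -0.14 (SE 0.19). The median of the 5 genes, *gst-42* included, was 0.06 in mutants and 0.02 in WT animals.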

How the data were processed

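RNA-seq of 20 *C. elegans* libraries was analysed, 5 for each of 4 groups taken from the sample labels. Whole-number read counts for each gene were deposited by the authors. Per the methods, Cel-seq2 reads were demultiplexed, trimmed (Trimmomatic 0.32) and aligned (STAR), ESAT did the counting, and pseudogenes were removed. The genome build, the use of strand and the treatment of molecular identifiers are not given in the sources used here. Symbols and WBcel235 positions came from Ensembl, and 22497 of the 22736 identifiers had a symbol.

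Counts were analysed in R 4.3.3 with edgeR 4.0.16 (TMM, filterByExpr by group, glmQLFit and glmQLFTest) on all 20 libraries, with group and library series as terms and Benjamini-Hochberg adjustment over the 11270 genes tested. Calls needed a fold change over 1.5 besides an adjusted p under 0.05, except for the interaction, which had no fold minimum. CPM are counts scaled by the library total. The sequencing batch (2 replicates on one instrument and 3 on another, in the methods) was taken from the series of library names, since no label names the instrument. Replicates are biological per the labels. Their numbers pair the samples: residuals of libraries with the same number correlated at r = 0.197 to 0.730 in all 20 pairs (no lower than 0.1002 within a library series), and 18 of the 20 correlated best with their own number, so a replicate block was fitted as an alternative. The other alternatives were DESeq2 1.42.0 as the test or for size factors, library totals, no low-count filter, no fold minimum, no batch term, only the 10 libraries compared, each library series alone, each library left out and, added after the data were seen, replicate 7 left out of every group. Scripts were tested on simulated data. Figures were drawn with matplotlib 3.10.9. Intervals are 95% intervals of the fit, and a count of 0 allows up to 3 counts, for counting error only.

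The members, the pathway and marker lists and the tests were chosen with earlier results of these data known. Members named in the text are those called, the 5 most abundant, the 3 with the largest absolute log2 fold change in each comparison at a mean count of at least 20, and representatives of each class; *gst-9*, *gst-12*, *gst-13*, *gst-16*, *gst-26* and *gst-29* were added after their values were seen.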

Additional observations from a re-analysis of the deposited data

Results flagged for a closer look

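In 128 groups of 5 libraries examined, 14 held a library that stood apart from the other 4, where chance alone gives about 1 in 20. Most concern members of low abundance. In supplemented *Δdhgd-1* mutants, *gst-41* was at 3.049 CPM in 1 library against 0.170 to 0.782 CPM in the others, *gst-44* at 3.579 against 1.30 to 1.96 CPM, and *gst-5* at 11.4 against 0.194 to 1.30 CPM. In unsupplemented *Δdhgd-1* mutants, 1 library stood apart for *gst-41* (1.809 against 0.0721 to 0.459 CPM), *gst-43* (9.418 against 3.62 to 4.33 CPM), *gsto-1* (3.618 against 1.27 to 1.61 CPM), *gsto-3* (13.08 against 2.76 to 3.97 CPM) and the sum of sperm markers (15.17 against 0.0721 to 2.31 CPM).

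In supplemented WT animals, 1 library stood apart for *gst-44* (1.896 against 0.941 to 1.19 CPM), the intestine markers (1245 against 5554 to 7056 CPM) and the early embryo markers (5.915 against 2.11 to 3.01 CPM). In unsupplemented WT animals this held for *gst-36* (118.6 against 41.5 to 58.4 CPM), the pharynx markers (200.9 against 91.3 to 122 CPM) and the early embryo markers (4.114 against 2.09 to 2.60 CPM). Of the members called with vitamin B12, none had such a library in any group.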

How the results depend on the processing

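No called member changed direction under any alternative. The alternatives reuse the libraries that gave the calls, so this is no separate support for a direction. Of the members not called with vitamin B12, 5 of 22 in mutants and 5 of 23 in WT animals had the other sign in the olga libraries alone, among them *gst-29* in mutants (1.05, against -0.61 in the olga and 2.02 in the s libraries). Between the strains without supplement 10 of 29 did so in the olga and 5 in the s libraries alone. The counts of members called higher with vitamin B12, 7 in *Δdhgd-1* mutants and 6 in WT animals, were 3 and 3 without the batch term, 0 and 1 with the olga libraries alone, 4 and 2 with the s libraries alone (*gst-10*, *gst-20*, *gst-38* and *gst-29*, adjusted p = 0.0333, in mutants), 3 and 4 with replicate 7 left out of every group (chosen after seeing the data), 5 in mutants with library totals, and 4 in WT animals with only the 10 libraries compared. The fit without a low-count filter gave 8 in mutants and 7 in WT animals. Leaving out 1 library at a time gave 4 to 7 in mutants and 4 to 7 in WT animals. Between unsupplemented mutants and WT animals, where no member was called, the replicate block gave 1 member higher and 2 lower, the fit without a low-count filter 2 lower and DESeq2 1 lower, and leaving out 1 library gave 0 to 1 lower (1 without *Δdhgd-1* replicate 2 or without WT replicate 6). The replicate block gave 8 members higher with vitamin B12 in each strain and, beyond the changes given beside *gst-6*, *gst-10*, *gst-13*, *gst-22*, *gst-41* and *hpd-1*, changed no other member's call. The cause of these changes was not tested, except that fewer libraries enter the fits of 1 series. Shares of all genes called are given only for the main, replicate block and DESeq2 fits. In the other fits a change in the members cannot be told from a general change in calls. *gst-20* and *gst-38* were called in both strains under every alternative but the olga libraries alone, where *gst-20* was called in WT animals only. Depth limits members under about 1 CPM, which rest on few counts a library.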
